A study of Mus musculus with 3 samples.

Results

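The microRNA genes Mir302a, Mir302b, Mir302d, Mir292, Mir292b and Mir293, which belong to the miR-302 and miR-290 clusters, were described from peaks of AGO2-bound RNA. They were chosen by their peaks: a peak of at least 1 peak list had its midpoint in the RefSeq span of the gene, on either strand. The 6 genes held 10 of the 6911 peaks in 4 lists, and are 6 of the 52 microRNA genes with a peak in any list. Those 52 are 4.23% of the 1228 annotated. Since the presence of a peak chose the genes, the counts of peaks and their scores are given as a description and were not tested. AGO2 HITS-CLIP was made in 3 libraries of P19 cells, a mouse embryonal carcinoma line, with the antibody clone 2D4. In this assay RNA is crosslinked to the protein, pulled down with it and sequenced. The libraries form 1 group, named CLIP_AGO2, with no treated or control group. Each list, from CIMS, Piranha, Pyicoclip and PIPE-CLIP, covers the series as a whole, so the spread between libraries cannot be stated and the depth of each is unknown.

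MicroRNAs are cut from hairpin precursors, and 1 arm of the hairpin, 5p or 3p, usually stays in an Argonaute protein and guides it to target RNAs through its seed, bases 2 to 8. The miR-290 cluster, which runs to Mir295, is the main microRNA cluster of naive mouse pluripotent cells, and the miR-302 cluster, which ends with Mir367, is known for later pluripotent states such as the epiblast. Most 3p microRNAs of both clusters carry closely related seeds, and they are known to repress inhibitors of the cell cycle and regulators of the Nodal and TGF-beta pathway. A CLIP fragment over a hairpin can be the guide itself, while a fragment in a messenger RNA comes from a target, so peaks in these genes bear on the microRNAs loaded in AGO2.

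The letters under 3 of the Pyicoclip peaks are shown first because each contained a whole mature microRNA, printed in capitals, with a few bases of the hairpin on either side in lower case. They were read from RefSeq hairpins of GRCm38.p6, whose coordinates are those of mm10, on the plus strand and from 5′ to 3′. In order, the peaks lie at chr3:127545274-127545299, chr3:127545499-127545528 and chr7:3220388-3220414.
Mir302b, 3p arm: gUAAGUGCUUCCAUGUUUUAGUAGaa
Mir302a, 5p arm: ccACUUAAACGUGGUUGUACUUGCuuuaga
Mir293, 3p arm: gaAGUGCCGCAGAGUUUGUAGUGUugc

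The mature microRNAs of the 2 clusters that carry the seed AAGUGCU in the RefSeq table are set side by side because they differ in whether a peak was listed. The seed is in capitals. The first pair lay wholly under a Pyicoclip peak and partly under a Piranha peak, which overlapped 6 nt of miR-302b-3p and 16 nt of miR-302d-3p. The other 3, all from the chromosome 7 cluster, lay under no peak of any list.
miR-302b-3p: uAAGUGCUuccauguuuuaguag
miR-302d-3p: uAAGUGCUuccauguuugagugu
miR-291a-3p: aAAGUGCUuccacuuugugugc
miR-294-3p: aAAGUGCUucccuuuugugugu
miR-295-3p: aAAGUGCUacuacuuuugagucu
The 5 are all of the mature microRNAs with this seed in the table. The table lists no 3p mature microRNA for Mir302a or Mir292, so these arms are missing from the comparison. Both arms held a Pyicoclip peak, with scores of 15 and 18. Counted from 1 at the 5′ end, miR-302b-3p and miR-302d-3p were identical at 20 of 23 positions and differed by U18G, A22G and G23U, with the base of miR-302b-3p first. Their peaks were listed at separate places, but the sources used here do not state how reads that match both hairpins were placed.

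On chromosome 3 the miR-302 cluster spans chr3:127545228-127545807 and holds 5 genes on the plus strand, of which 3 had peaks. On chromosome 7 the miR-290 cluster spans chr7:3218626-3220841 and holds 9 genes, of which 3 had peaks. Of the 10 peaks, 7 lay on chromosome 3 and 3 on chromosome 7, and all 10 were on the plus strand. Pyicoclip gave 6 of them and Piranha 4, and neither CIMS nor PIPE-CLIP listed a peak in either cluster. No list had a peak between the hairpins or within 10 kb of the outer ends of either cluster. The lowest score in each list is 10, so that a hairpin with no listed peak may still have had fragments that did not reach the lists. Over all 1228 microRNA genes, 4.07% held a Pyicoclip peak and 3.01% a Piranha peak, while 0.651% held a PIPE-CLIP cluster and 0.163% a CIMS peak. The rule used the same peaks, so nothing is read from the 6 of 6 members in Pyicoclip and 4 of 6 in Piranha.

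**Figure D1:**
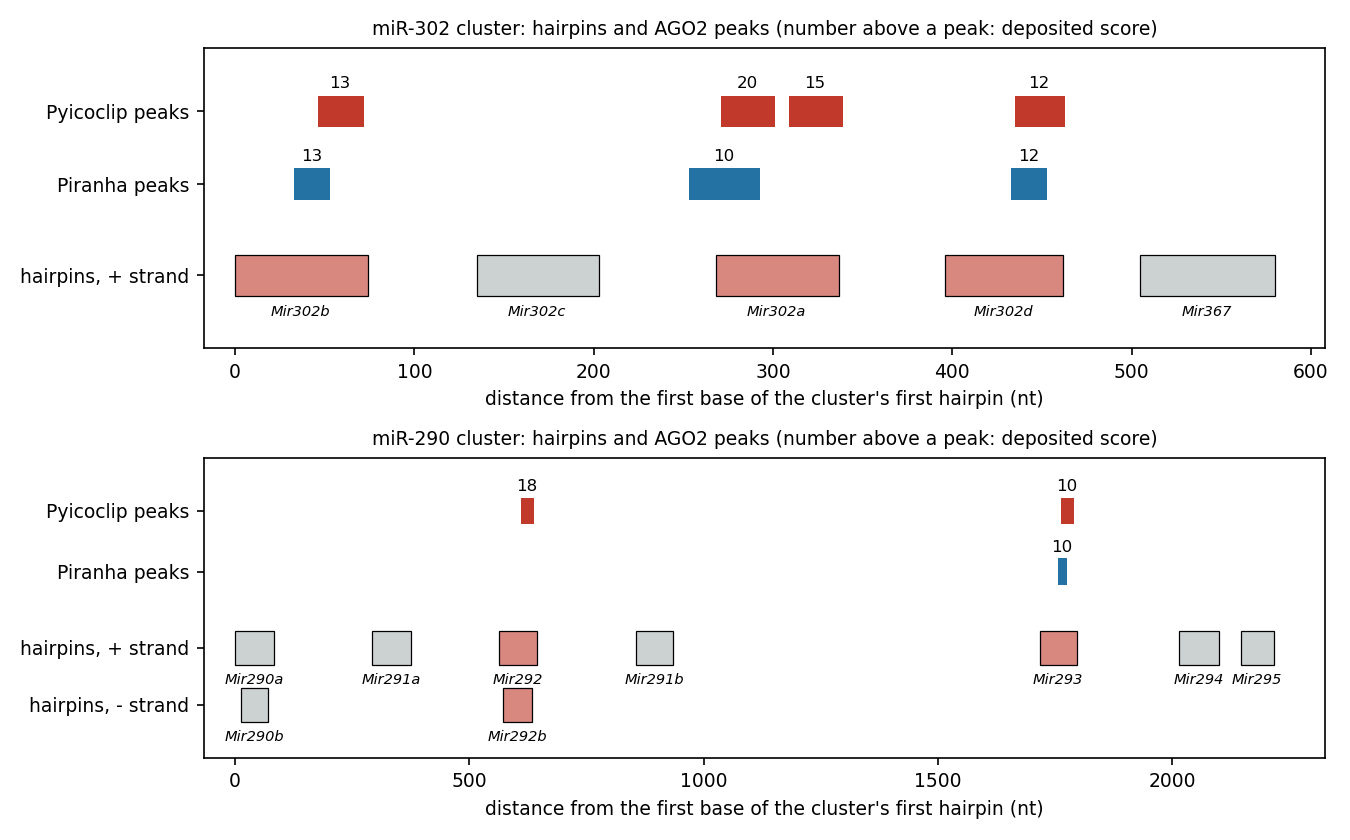
Hairpins of the 2 clusters by strand (boxes; red, genes that hold a peak; grey, genes with none) and the Pyicoclip and Piranha peaks above them, against the distance in nt from the first base of the first hairpin. The number above each peak is its deposited score. Mir302a holds a Pyicoclip peak on each arm, with scores of 20 and 15, and the peak of 18 lies over both Mir292 and Mir292b.

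Mir302a, chr3:127545496-127545564, was the only gene of the 2 clusters with more than 1 peak in a list. Its 5p arm had a Pyicoclip peak of 30 nt with a score of 20, the highest among the 6 genes and above 86.1% of the Pyicoclip list. A second Pyicoclip peak of 30 nt, at chr3:127545537-127545566, lay on the 3p arm 8 nt further on, with a score of 15, and ran 2 nt past the end of the hairpin. Piranha listed the 5p arm only, as a peak of 40 nt at chr3:127545481-127545520 with a score of 10, which began 15 nt before the hairpin. Mir302a thus had the higher score on the 5p arm, the arm that in this family is usually taken as the passenger strand. No error can be put on the difference between 20 and 15, since the score has no stated unit and no value per library was used. Pyicoclip peaks on both arms were listed for 4 of the 46 microRNA genes with a Pyicoclip peak and a strand in the sequence table. The other 3, singled out after their values were seen, had the higher score on the 3p arm, with 18 and 12 in Mir181a-2, 13 and 11 in Mir423, and 19 and 12 in Mir92b.

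Mir302b, chr3:127545228-127545301, had a Pyicoclip peak of 26 nt with a score of 13 and a Piranha peak of 20 nt at chr3:127545261-127545280, also with a score of 13. Mir302d, chr3:127545624-127545689, had a Pyicoclip peak of 28 nt at chr3:127545663-127545690 with a score of 12. Its Piranha peak at chr3:127545661-127545680 scored 12 too. By its midpoint, each peak in both genes lay on the 3p arm, which carries the AAGUGCU seed shown above. Neither gene had a peak with its midpoint on the 5p arm. The Piranha peak of Mir302b began 14 nt before miR-302b-3p and overlapped only 6 nt of it. Between them and beside them, Mir302c, chr3:127545363-127545430, and Mir367, chr3:127545733-127545807, had no peak in any list. The listed miR-302c-3p starts 1 base later in the shared sequence, so its seed reads AGUGCUU, which no other listed microRNA has.

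Mir292, chr7:3219189-3219270, had a Pyicoclip peak of 27 nt at chr7:3219236-3219262 with a score of 18, above 82.1% of the list. The peak lay on the 3p arm of Mir292, and no Piranha peak overlapped it. Mir292b, chr7:3219198-3219259, is annotated on the minus strand inside the span of Mir292, and the same plus-strand peak is the only one in its span. Mir292b is therefore among the 6 genes through a peak on the strand opposite to it, and no peak on its own strand was listed. Mir293, chr7:3220343-3220422, had a Pyicoclip peak of 27 nt and a Piranha peak of 20 nt at chr7:3220381-3220400, both on the 3p arm. Each scored 10, the lowest value that either list holds, and by score this is the member closest to being left out. Its seed, GUGCCGC, was carried by no other listed microRNA. The other 6 genes of the cluster, Mir290a, Mir290b, Mir291a, Mir291b, Mir294 and Mir295, had no peak in any list.

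Read in the order of the Pyicoclip score, the 6 sites were Mir302a 5p with 20, Mir292 with 18, Mir302a 3p with 15, Mir302b with 13, Mir302d with 12 and Mir293 with 10. The order is that of 1 pooled list, and which neighbours differ beyond the spread between libraries was not tested. The median over the 6 peaks was 14, against 13 over the 49 Pyicoclip peaks in other microRNA genes and 12 over all 2068 peaks. Other microRNA genes ranged from 10 to 151, and the members lay inside that range, with ranks from 10 to 50 among 55 peaks. The value of 151 came from peaks of Mir6236 alone, which overlap, end at the same base and are counted separately here. The next highest was 30, at Mir181a-1. In Piranha the 4 member peaks had a median of 11 and a range of 10 to 13, against a median of 13.3 and a range of 10 to 30 over 34 peaks in other microRNA genes. The median of the whole Piranha list was 12.

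**Figure D2:**
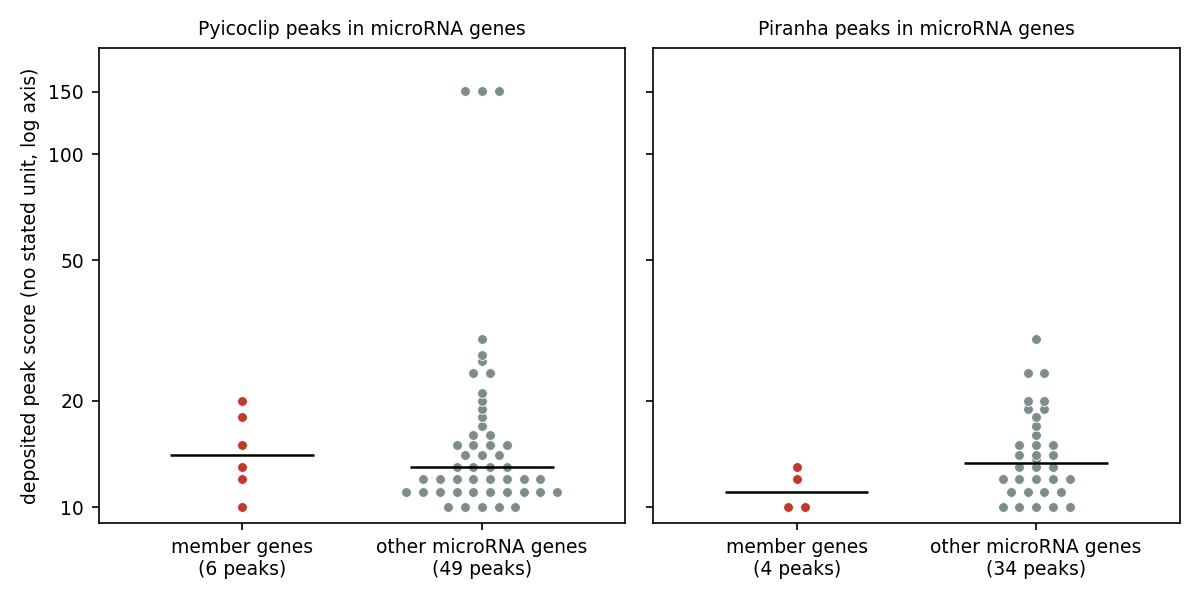
Deposited score (log axis) of each Pyicoclip peak (left panel) and Piranha peak (right panel) in the 6 member genes, in red, and in other microRNA genes, in grey. Points are peaks and black lines are medians. Member peaks lie between 10 and 20 in Pyicoclip and between 10 and 13 in Piranha, within the range of the other microRNA genes in both lists.

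The scores of Piranha and Pyicoclip were compared at the 4 member sites they shared. Piranha peaks start on a grid of 20 nt in all 1417 cases, and the score times the number of bins was whole, within 0.01, for all 1417. At Mir302b, Mir302d and Mir293, where the Piranha peak was 1 bin wide, the 2 scores were equal. At the 5p arm of Mir302a the Piranha peak was 2 bins wide with a score of 10, and the product of 20 equalled the Pyicoclip score. The product equalled the Pyicoclip score in 4 of 4 member pairs, in 26 of 36 pairs at other microRNA genes and in 944 of 1368 pairs over the whole lists. The lists come from the same libraries, so a site in both is not a second measurement of it. Of the 6 Pyicoclip sites of the members, 4 overlapped a Piranha peak, and of the 49 in other microRNA genes 36 did, or 73.5%. The 2 sites without one, the 3p arms of Mir302a and Mir292, scored 15 and 18, higher than 3 of the 4 sites that had one. The overlap was 7 nt at Mir302b, 13 nt at Mir293, 18 nt at Mir302d and 22 nt at Mir302a.

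The Pyicoclip peaks of the members were set against the mature microRNAs. For the 4 sites with a listed mature sequence, the peak covered the whole of it. The peak began 1 nt before the 5′ end of miR-302b-3p and 2 nt before that of miR-302a-5p, miR-302d-3p and miR-293-3p. It ended 2 nt after the 3′ end of miR-302b-3p, 3 nt after that of miR-302d-3p and miR-293-3p, and 6 nt after that of miR-302a-5p. In other microRNA genes, 40 stranded Pyicoclip peaks had a listed mature sequence on the same strand. There the median was 2 nt before and 4 nt after, and 32 of the 40 began 0 to 3 nt before the 5′ end, so most of these peaks began in the same range as the members. Over all 6 sites the width was 26 to 30 nt, with a median of 27.5 nt, against a median of 29 nt and a range of 25 to 127 nt in other microRNA genes. The widest peaks of those genes lay in Mir6236, where overlapping peaks with the same end are each counted. Piranha positions follow its grid and were not read at this resolution.

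**Figure D3:**
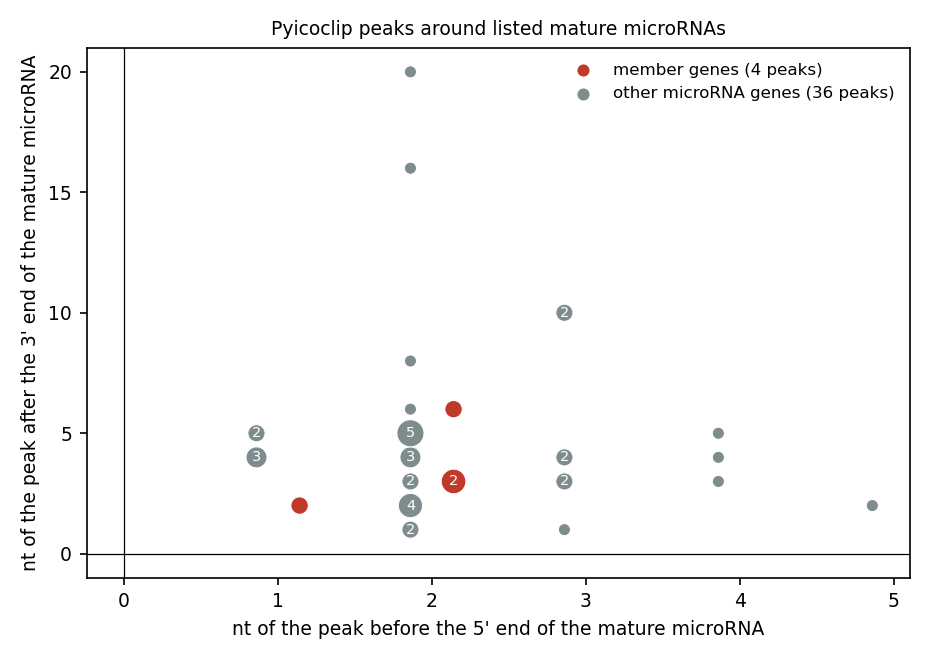
Number of nt by which each stranded Pyicoclip peak begins before the 5′ end of the listed mature microRNA (horizontal axis) and ends after its 3′ end (vertical axis), for member genes (red, 4 peaks) and other microRNA genes (grey, 36 peaks). Numbers in points count peaks at the same position, colours are moved apart sideways for clarity, and 4 peaks of other genes lie beyond the axes. Member peaks begin 1 or 2 nt before the microRNA and end 2 to 6 nt after it.

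By the side of the hairpin centre on which the midpoint lay, 5 of the 6 Pyicoclip sites and 3 of the 4 Piranha peaks of the members were on the 3p arm. In other microRNA genes the 3p arm held 14 of 45 Pyicoclip peaks, or 31.1%, and 14 of 33 Piranha peaks, or 42.4%. The difference was not tested, because the hairpins of a cluster share a transcript and are related in sequence and are not independent sites. The 4 Piranha peaks of the members lie at sites that Pyicoclip also listed, and their positions follow the grid. Their arms are therefore not a second count. The exception among the members was the 5p peak of Mir302a, whose seed, CUUAAAC, was carried by no other listed microRNA. The 5p seed CUUUAAC of Mir302b, Mir302c and Mir302d lay under no peak, and neither did CUCAAAC, the 5p seed of Mir290a, Mir292 and Mir293.

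The hexamer AAGUGC is the part that most 3p seeds of the 2 clusters share, also with the miR-17 family. It was searched for within the first 9 bases of 1679 listed mature sequences and was found in 19, or 1.13%. Of these, 9 came from the 2 clusters and 10 from elsewhere. A Pyicoclip peak lay over 2 of the 9, miR-302b-3p and miR-302d-3p, and over 1 of the 10, miR-93-5p, against 40 of all 1679, or 2.38%. The 3p arms of Mir302a and Mir292 held Pyicoclip peaks too, but have no listed mature sequence. They could not be searched, so the 2 of 9 does not cover every 3p arm of the clusters. The peak at Mir93 scored 13 in Pyicoclip, as did the one at Mir302b. The letters describe the microRNAs and say nothing of the RNAs they bind. The seed of miR-367-3p, AUUGCAC, was shared with 5 listed microRNAs outside the clusters, and 4 of these, miR-25-3p, miR-92a-3p, miR-92b-3p and miR-363-3p, lay under a Pyicoclip peak while miR-367-3p did not. Of 12 matched genes in a list of miR-17, miR-106 and miR-92 cluster microRNAs, 6 had a peak, against 4.23% of all microRNA genes, with the highest Pyicoclip score of 20 at Mir92-1, equal to that of Mir302a 5p. That list was chosen with earlier results of these data known, so nothing is read from its share.

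The 6 member hairpins lie inside the spans of longer genes, and every peak in these 4 longer spans was a hairpin peak. Larp7, the gene of a protein that binds and stabilises the small nuclear RNA 7SK, spans the miR-302 cluster on the minus strand. It had 7 peaks, and all 7 were the plus-strand peaks of the hairpins. The long non-coding RNA gene Gm51018, on the plus strand, had the same 7. Nlrp12, a gene of the NOD-like receptor family on the minus strand, overlaps the chromosome 7 cluster apart from the start of Mir290a and Mir290b, and its 3 peaks were the hairpin peaks, as were the 3 of the plus-strand long non-coding RNA gene D7Ertd143e. A count of peaks by gene span, with strand ignored, thus lists Larp7 and Nlrp12 through these microRNAs. Both were in a list of 8 host genes and upstream factors, chosen with earlier results of these data known. Of the 8, 4 had a peak in any list, or 50%, against 9.77% of protein-coding genes. Without PIPE-CLIP the count was 2, or 25%, against 4.58%. Those were Larp7 and Nlrp12, so nothing is read from these shares. Of the transcription factor genes in this list, Pou5f1, which encodes OCT4 and is a marker of pluripotent cells, had 1 PIPE-CLIP cluster with a score of 19. Tcf3, on chromosome 10, had 2 with a highest score of 13. Sox2 and Nanog, also pluripotency genes, had no listed peak. Peaks follow AGO2 binding and are no measure of expression, so the label of the line was not checked further.

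A list of 24 genes reported as targets of the 2 clusters, or named as candidates, was drawn up with earlier results of these data known, and it supports nothing by itself. Of the 24, 9 held a peak in any list, or 37.5%, against 9.77% of 21896 protein-coding genes. Without PIPE-CLIP the count was 6, or 25%, against 4.58%. On the strand of the gene, 7 of the 19 targets with a known strand held a peak, against 8.39% of protein-coding genes. Lefty1, which encodes a secreted antagonist of Nodal and is a known target of miR-302, had 3 Pyicoclip peaks with a highest score of 58, 3 PIPE-CLIP clusters with a highest of 110 and 1 CIMS peak of 53. Its Pyicoclip peak scoring 30 lay inside the one scoring 58, so these are not separate places. Ccng2, the gene of the cell cycle inhibitor cyclin G2, was in all 4 lists, with 6 Pyicoclip peaks of which the highest scored 25. Cdkn1b, which encodes the cyclin-dependent kinase inhibitor p27, had 2 Pyicoclip peaks scoring 20 and 12, 2 PIPE-CLIP clusters and 1 Piranha peak. Btg1, an antiproliferative gene, and Arid4b, a chromatin gene, had 2 Pyicoclip peaks each, with highest scores of 16 and 11. Tgfbr2, a TGF-beta receptor gene, Ei24 and Ddx17 had PIPE-CLIP clusters alone, with 6, 1 and 2.

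The other 15 target genes had no peak in any list. Among them were Cdkn1a, the gene of the cell cycle inhibitor p21, Lats2, a kinase of the Hippo pathway, Rbl2, of the retinoblastoma family, and Lefty2. The 6 hairpin sites had Pyicoclip peaks of 26 to 30 nt, against a median of 138.5 nt and a range of 20 to 410 nt over 16 Pyicoclip peaks in the target list. Of these 16, 15 were over 30 nt, and the narrow one, of 20 nt in the Ccng2 span, lay on the strand opposite to the gene. The nested peaks of Lefty1 are counted separately among the 16. Over all 2068 Pyicoclip peaks the median width was 29 nt. Widths of 26 to 30 nt thus lie around the middle of the whole list and do not set the hairpin sites apart from it. The lists do not say which microRNA guided AGO2 to a site, and seed matches in these peaks were not analysed here. Of the 12 genes that make microRNAs or act with them, 7 had a peak, or 58.3%, against 9.77% of protein-coding genes. This list too was chosen with earlier results of these data known and supports nothing by itself. The 7 were Dicer1, Ago1, Ago2, Ago4, Tnrc6a, Tnrc6b and Tnrc6c. Without PIPE-CLIP, 6 of the 12 had one, all of these but Dicer1, against 4.58%. Tnrc6a, which encodes a GW182 protein bound by Argonaute, had the highest Pyicoclip score of 30.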

How the data were processed

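AGO2 HITS-CLIP libraries of P19 cells, 3 in 1 group, were analysed from 4 deposited peak lists, 1 per peak caller. Reads were handled with cutadapt and Novoalign against mm10, per the submitters' processing notes. How libraries were combined, with versions and caller settings, is not given in the sources used here. The authors deposited a score per peak with no stated unit, used here only to describe and rank peaks within a list. In CIMS it equalled the number k in all 169 peak names.

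Genes, spans and sequences came from RefSeq tables of GRCm38.p6, and all 6 members matched. A peak belonged to a gene whose span held its midpoint. Peaks overlapped if they shared at least 1 nt on the same strand, and 137 unstranded Pyicoclip peaks matched either strand. The arm was the side of the hairpin centre with the midpoint, and the strand of longer genes came from the RefSeq promoter table. No test was made. Genes named were all those of the 2 clusters and members of the target, host and processing lists with a peak, while 1 target list gene with a peak is not reported here by name, and others named were chosen after their values were seen. The members and lists were chosen with earlier results of these data known. The gene assignment was run on simulated peaks placed inside microRNA gene spans and on peaks shifted beyond the chromosome ends. Both outcomes follow from the midpoint rule, so the run shows only that the rule was applied, not that positions are right. Calculations used Python 3.11.15 with numpy 2.4.6 and pandas 2.3.3, and figures matplotlib 3.10.9.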

Additional observations from a re-analysis of the deposited data

How the results depend on the processing

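The 10 peaks in member genes were the same number with an overlap of at least 1 nt, with spans widened by 50 nt and with hairpin strand alone, the last of which left 5 of the 6 genes, without Mir292b. With a score of at least 20 there remained 1 peak in 1 member gene, 10 microRNA genes with a peak against 52, and 5 target genes against 9, by construction of a higher floor. Other genes of the clusters had 0 peaks also with an overlap of at least 1 nt and with a score of at least 20. Sites in 2 lists numbered 3 against 4 with an overlap of at least 50% of the shorter peak, without Mir302b. By the listed mature sequence, 6 peaks were on the 3p arm against 8, since 2 peaks had no listed mature sequence. Target genes numbered 6 without PIPE-CLIP and, chosen after seeing the data, 7 of 19 genes with a known strand on the strand of the gene. Leaving out each replicate was not run, since each list covers the 3 libraries as a whole. No paired analysis was possible because the columns carry no library.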
